A study of Homo sapiens with 7 samples.

Results

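The miR-148 and miR-152 family has 3 members, miR-148a, miR-148b and miR-152, and each has a single assay among the 377 microRNA assays of the TaqMan Human MicroRNA Array A card. They were taken by the name of the assay. MicroRNA was measured in 3 oligometastatic L1-R2 lines (labelled MDA-MB-435-L1-GFP, Ol-like) and 4 polymetastatic L1Mic-R2 lines (labelled MDA-MB-435-L1Mic, Poly-like). All 7 lines descend from MDA-MB-435-GFP, an established human tumor cell line that carries green fluorescent protein. The parent of the L1-R2 lines came from macroscopic lung metastases of a mouse, and that of the L1Mic-R2 lines from tumor cells in lung tissue of the same animal without macroscopic metastases. Each profiled line was grown from the lung of another athymic female mouse, under G418 selection for the fluorescent cells and with no further treatment. Each line thus stands for 1 animal, and 1 card was run per line. Each group descends from 1 parent line, so that a difference between the groups cannot be told apart from one between these parents.

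The members of this family carry the same seed, the bases through which a microRNA pairs with its targets. They are best known as repressors of DNA methyltransferases (DNMT1 and DNMT3B) and of HLA-G, and miR-148a is also known to be silenced by promoter methylation in metastatic tumor cells. MIR148B and MIR152 lie inside genes for coatomer subunits, COPZ1 and COPZ2, which make the zeta chain of the coat of vesicles in the Golgi.

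The mature sequences are shown because they set the members apart only outside the seed, which is in capitals (bases 2 to 8). They were taken from RefSeq, build GRCh38.p14, and match the assays by name.
miR-148a: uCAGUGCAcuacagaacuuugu
miR-148b: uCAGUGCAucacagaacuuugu
miR-152: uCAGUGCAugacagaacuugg
Positions are counted from 1 at the 5′ end. From miR-148a to miR-148b the changes were C9U and U10C, and 20 of the 22 bases were identical. From miR-148b to miR-152 they were C10G and U20G, with 19 of 21 bases identical. MiR-152 differed from miR-148a by C9U, U10G and U20G, so that 18 of 21 bases were shared. Of the 2370 mature names in the table, 3 carried this seed, and all 3 are the members. The 326 microRNA assays of the card that matched the table by name held no other assay with it.

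The hairpins are shown with the measured arm in capitals, since this arm is the 3′ arm in each.
MIR148A: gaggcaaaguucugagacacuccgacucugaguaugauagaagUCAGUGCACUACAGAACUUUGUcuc
MIR148B: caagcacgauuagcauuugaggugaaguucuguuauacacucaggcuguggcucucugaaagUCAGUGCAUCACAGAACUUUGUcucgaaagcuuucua
MIR152: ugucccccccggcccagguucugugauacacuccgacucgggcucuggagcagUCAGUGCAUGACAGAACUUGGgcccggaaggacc
MIR148A lies at chr7:25949919-25949986 on the minus strand (GRCh38.p14), within the span of the long noncoding RNA gene LOC105375199. MIR148B lies at chr12:54337216-54337314 on the plus strand, within COPZ1 (chr12:54325131-54351846, plus strand), and its hairpin begins 12085 bases after the start site of COPZ1 in the RefSeq promoter table. MIR152 lies at chr17:48037161-48037247 on the minus strand, within COPZ2 (chr17:48026167-48048053, minus strand). Its hairpin begins 550 bases after the start site of COPZ2 in that table. That site, at 48037797, lies inside the span of COPZ2 and not at its upstream end, 48048053. The start site of COPZ1 is the upstream end of its span, so that the distances are not alike. Both members inside a coatomer gene are on the strand of that gene.

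The deposited measure is the threshold cycle (Ct), reached when the fluorescence of a PCR well passes 0.3. A lower Ct stands for more RNA, and 1 cycle is a step of 1 on a log2 scale if each cycle doubles the product. A microRNA was called detected below a Ct of 38, and a well that never crosses the threshold is listed as Undetermined. In bulk RNA, fewer cells with a microRNA and less of it per cell cannot be told apart. Across the 7 cards, 160 to 184 microRNAs were detected, and U6, read in 4 wells per card, had an SD between wells of 0.0272 to 0.0983 cycles. No other assay was repeated, so that the spread over lines holds both biology and measurement error. The cards numbered 1 to 3 held L1-R2 and those numbered 4 to 7 held L1Mic-R2, so that card order and group cannot be told apart. In the file names, 3T and 4T of L1-R2 are exchanged, and the line numbers here follow the labels.

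The 3 members were far apart in these lines. MiR-152 was detected in all 7 lines near cycle 30, miR-148b was detected in all 7 but late, and miR-148a was Undetermined in all 7. No member passed the test between oligometastatic and polymetastatic lines. A Ct also depends on the efficiency of its assay, so that the distance between members is not a ratio of molecules. The change of 1 member from line to line stays within 1 assay. Its size in log2 units still takes each cycle as a doubling, which was not measured. The change also holds measurement error and differences between cards.

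**Figure D1:**
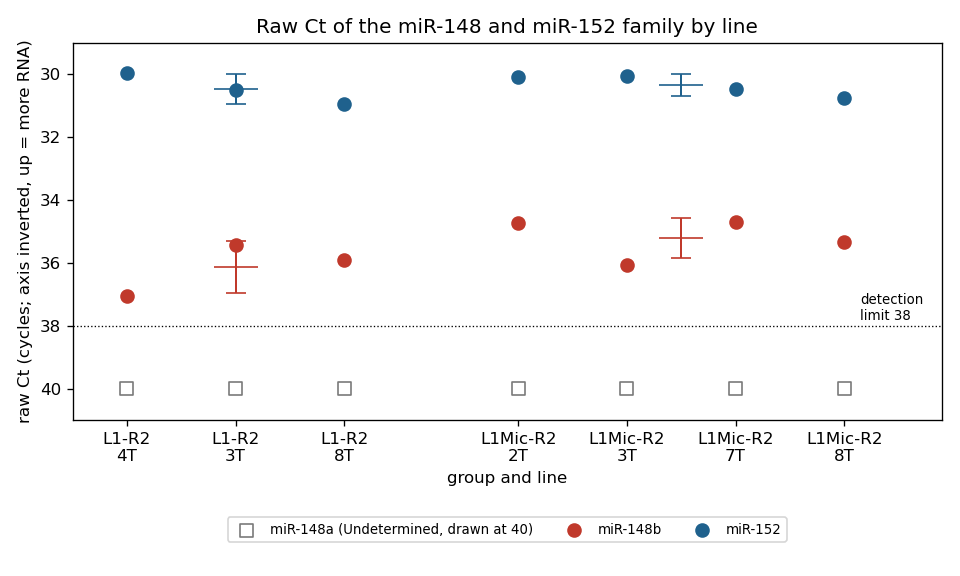
Raw Ct of each member (vertical axis in cycles, inverted so that more RNA is higher) in each line (horizontal axis), with bars at the centre of each group for the mean and SD of miR-148b and miR-152. MiR-152 lies between 29.96 and 30.93, miR-148b between 34.70 and 37.04, and the open squares for miR-148a, drawn at 40, are Undetermined wells without a Ct.

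MiR-148a, the member known as a target of methylation in metastasis, gave no Ct in any of the 3 L1-R2 or 4 L1Mic-R2 lines. A fold change cannot be formed for it, and it entered no test. The fluorescence above baseline at the end of the run shows how flat these wells were. It was 0.050 in line 4T, 0.0487 in line 3T and 0.0583 in line 8T of L1-R2. In L1Mic-R2 it was 0.0715 in line 2T, 0.0491 in line 3T, 0.0377 in line 7T and 0.0334 in line 8T. All 7 values were below the threshold of 0.3, and the range of the L1-R2 lines lay within that of the L1Mic-R2 lines. The assay for ath-miR159a, a plant microRNA that human cells lack, ended between 0.0230 and 0.0865. The wells of miR-148a thus lay within the range of this negative control. An Undetermined result was common on the card, since 138 of the 377 microRNAs (36.6%) had no Ct in any line, and 20 of the 137 others had a higher median fluorescence than miR-148a (0.0491). The lack of a Ct means that miR-148a was not detectable by this assay within 40 cycles, and a lower level could not be seen.

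**Figure D2:**
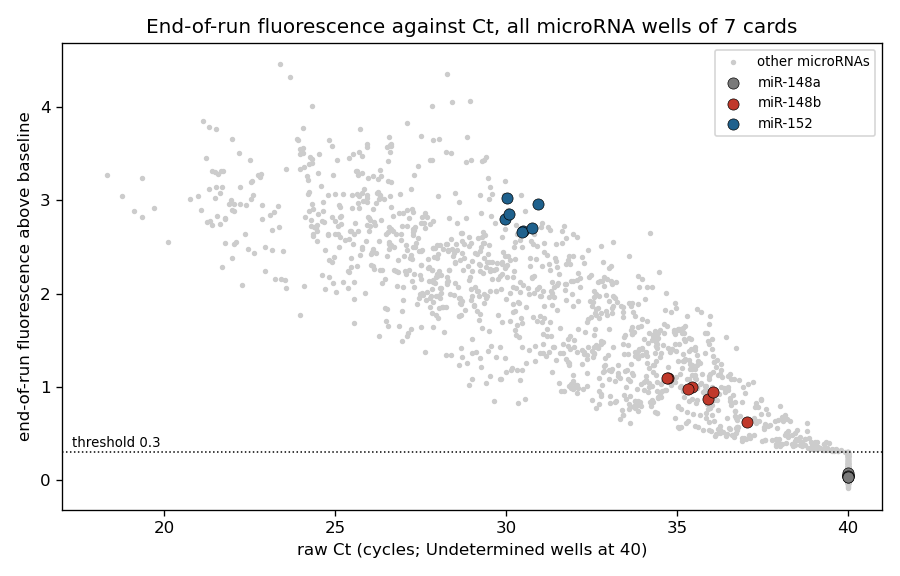
Fluorescence above baseline at the end of the run (vertical axis) against raw Ct in cycles (horizontal axis) for every microRNA well of the 7 cards, with Undetermined wells at 40. The wells of miR-152 end between 2.67 and 3.02, those of miR-148b between 0.628 and 1.10, and those of miR-148a at 0.0715 or less, under the dotted threshold of 0.3.

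MiR-152, which shares with miR-148a the repression of DNMT1, was the member with the earliest Ct and the smallest spread. Lines 4T, 3T and 8T of L1-R2 crossed the threshold at 29.96, 30.50 and 30.93 (raw Ct). Lines 2T, 3T, 7T and 8T of L1Mic-R2 crossed it at 30.07, 30.04, 30.47 and 30.75. Both the lowest and the highest value belonged to L1-R2, and the L1Mic-R2 lines lay between them. Raw Ct averaged 30.46 ± 0.49 for the oligometastatic lines (SD, n = 3) against 30.33 ± 0.34 for the polymetastatic lines (SD, n = 4). In the order of lines the widest step was 0.40 cycles, between L1Mic-R2 lines 2T and 7T, so that neighbours differed by less than the L1-R2 SD.

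After quantile normalization, which gives each card the same distribution of Ct, miR-152 averaged 30.57 ± 0.61 for the oligometastatic lines (SD, n = 3) against 30.32 ± 0.26 for the polymetastatic lines (SD, n = 4). In log2 units L1Mic-R2 was higher by 0.25, with a standard error of 0.32, a 95% interval from -0.54 to 1.04 and a limma adjusted p of 0.721. This is less than the spread among L1-R2 lines, and the exact two-sided permutation test gave p = 0.571. It was -0.08 without L1-R2 line 8T. It was 0.52 without L1-R2 line 4T and 0.93 with RNU44 and RNU48 as the reference, short of the adjusted threshold in each case. The interval still holds a level in L1Mic-R2 higher by about a cycle.

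The evenness of miR-152 can be set against the other microRNAs. Its raw Ct spanned 0.97 cycles over the 7 lines, where U6 spanned 0.80, RNU48 2.16 and RNU44 2.29. Over the 135 microRNAs detected in all 7 lines the median SD was 0.51 cycles, and miR-152 had an SD of 0.38. Of the 134 others, 94 had a larger SD. Among the 20 whose mean Ct lay within 1 cycle of its own, 15 had a larger SD. After quantile normalization its SD was 0.42, close to the median of 0.43, with 71 of the 134 others above it. These ranks describe the 7 cards and were not tested.

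MiR-148b, whose gene lies in COPZ1, was found near the limit of the assay. Lines 4T, 3T and 8T of L1-R2 crossed the threshold at 37.04, 35.44 and 35.92 (raw Ct). Lines 2T, 3T, 7T and 8T of L1Mic-R2 crossed it at 34.73, 36.05, 34.70 and 35.33. Line 4T of L1-R2 was the latest and lines 7T and 2T of L1Mic-R2 the earliest, but line 3T of L1Mic-R2 lay among the L1-R2 lines and the groups overlapped. Raw Ct averaged 36.13 ± 0.82 for the oligometastatic lines (SD, n = 3) against 35.20 ± 0.64 for the polymetastatic lines (SD, n = 4). The step of 0.98 cycles between L1-R2 line 4T and its neighbour exceeded the SD of either group, and the next widest step, 0.60, did not.

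After quantile normalization miR-148b averaged 36.79 ± 1.56 for the oligometastatic lines (SD, n = 3) against 34.97 ± 0.80 for the polymetastatic lines (SD, n = 4; exact two-sided permutation test, p = 0.171). In log2 units L1Mic-R2 was higher by 1.82, with a standard error of 0.81, a 95% interval from -0.15 to 3.78 and a limma adjusted p of 0.267. For raw Ct the log2 fold change was 0.93 (exact two-sided permutation test, p = 0.229), about 1 SD of the L1-R2 lines. The size thus differed with the scale. It also differed with line 4T, without which the normalized log2 fold change was 0.93. With Ct limited to 35 it was 0.16. Only lines 2T and 7T of L1Mic-R2 had a raw Ct of miR-148b below 35. That limit set all other lines to 35, so that the small size follows from the limit. Without line 3T of L1Mic-R2 it was 2.21, and the groups no longer overlapped.

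The normalization moved single lines. Line 4T of L1-R2 moved from a raw Ct of 37.04 to 38.59, and L1Mic-R2 line 8T from 35.33 to 34.28, while the other 5 lines moved by less. Of the 7 cards, that of L1-R2 line 4T had the fewest Undetermined wells (181) and that of L1Mic-R2 line 8T the most (207). The part of these wells, entered as 40, in the shifts was not tested. After normalization the 4 L1Mic-R2 values were 34.74, 36.12, 34.74 and 34.28 in lines 2T, 3T, 7T and 8T. The other L1-R2 values were 35.85 in line 3T and 35.93 in line 8T. The SD of miR-148b over the 7 lines rose from 0.82 to 1.44 cycles with the normalization. Before it, 108 of the 134 other microRNAs detected in all 7 lines had a smaller SD, and after it 130 had. Of the 7 microRNAs within 1 cycle of its mean raw Ct, 3 had a smaller and 4 a larger SD than miR-148b, with a median of 0.97. Its mean Ct of 35.60 was later than that of 133 of the 134 others.

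**Figure D3:**
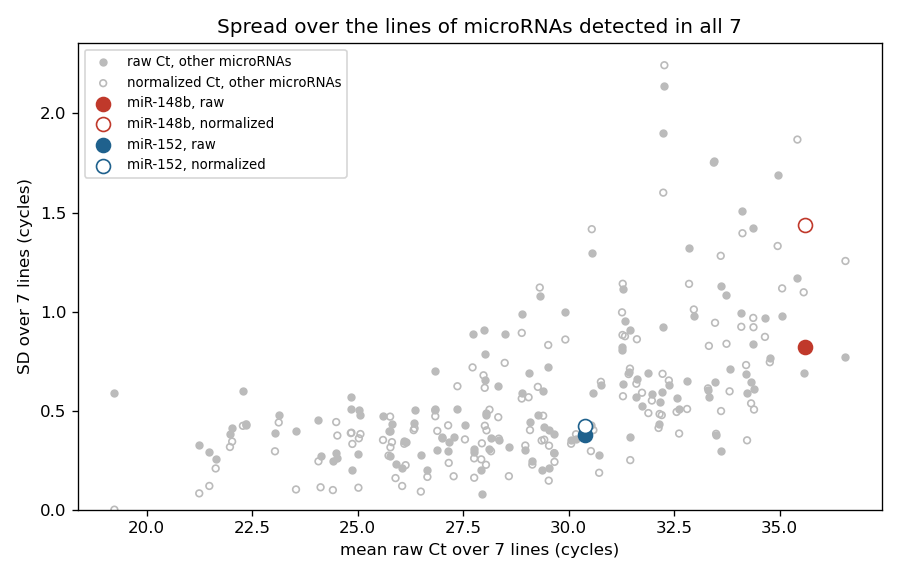
SD of Ct over the 7 lines (vertical axis, cycles) against mean raw Ct (horizontal axis, cycles) for the 135 microRNAs detected in all 7 lines, with filled points for raw and open points for quantile-normalized Ct. MiR-152 lies at an SD of 0.38 (raw) and 0.42 (normalized), and miR-148b rises from 0.82 to 1.44.

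Both members that could be tested were read against the background of the card. At an adjusted p under 0.05 from limma, 4.97% of the 181 microRNAs detected in at least 3 lines were called, and 0 of these 2 members. At an unadjusted p under 0.05 it was 19.3% of all and 0 of the 2 members. The groups did not overlap in 19.3% of all, and overlapped for both members. With only 2 members such shares say little about the family. The median log2 fold change of the 181 microRNAs was 0.06 after quantile normalization, which itself holds the distribution of each card fixed. That median moved to -0.25 for raw Ct, -0.19 when U6 was the reference and 0.56 when RNU44 and RNU48 were. Relative to the median, miR-148b was higher by 1.76 and miR-152 by 0.19 after quantile normalization. For raw Ct these were 1.17 and 0.38, and a control RNA cannot alter them because it shifts all microRNAs alike.

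**Figure D4:**
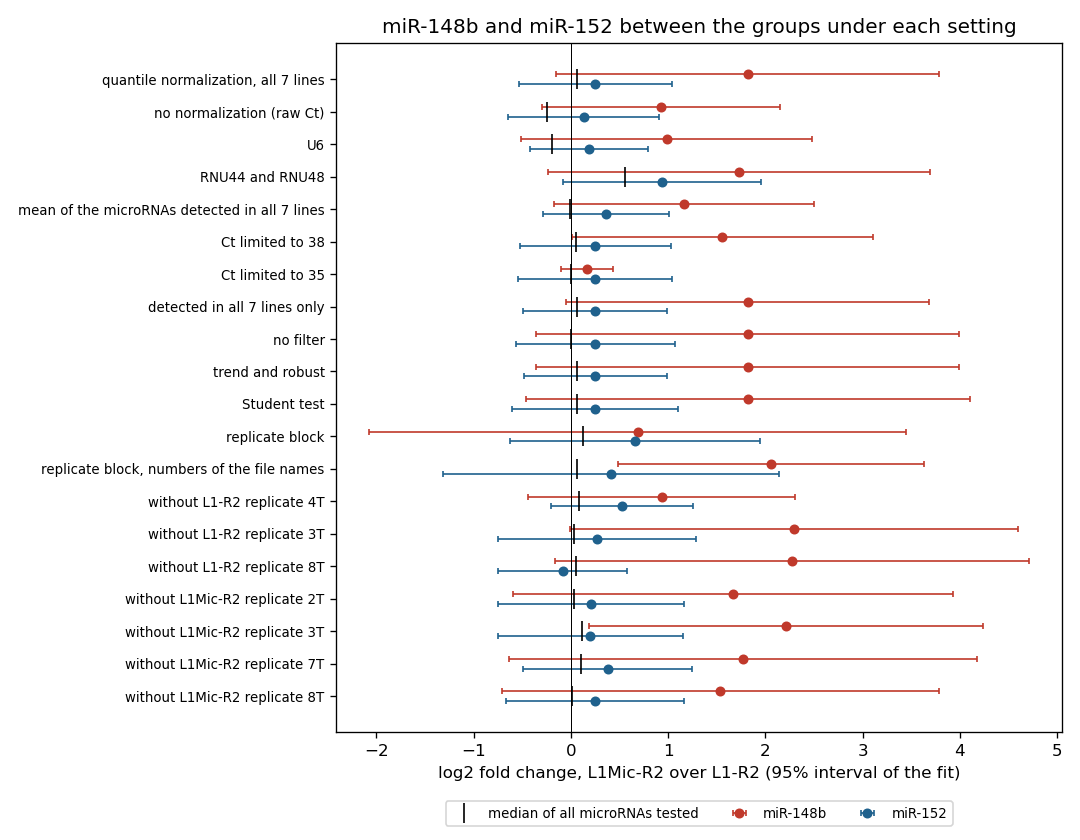
Log2 difference, L1Mic-R2 minus L1-R2, with its 95% interval (horizontal axis) for miR-148b and miR-152 under each setting (vertical axis), with the median of all microRNAs tested as a black tick. The points of miR-148b lie between 0.16 and 2.29, with intervals that hold 0 in most settings, and miR-152 falls to -0.08 without L1-R2 line 8T.

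Within a line the difference between 2 Ct values needs no normalization between cards. In lines 4T, 3T and 8T of L1-R2, miR-148b came 7.08, 4.94 and 4.99 cycles after miR-152. In lines 2T, 3T, 7T and 8T of L1Mic-R2 it came 4.66, 6.02, 4.23 and 4.58 cycles later. Line 4T, which had the earliest miR-152 and the latest miR-148b of all 7, had the widest distance, and the groups overlapped. The distance averaged 5.67 ± 1.22 cycles for the oligometastatic lines (SD, n = 3) against 4.87 ± 0.79 for the polymetastatic lines (SD, n = 4). The difference was 0.80 on the log2 scale (exact two-sided permutation test, p = 0.343). With 3 lines against 4 this test cannot give a p under 0.05, so that its p here and above decides nothing. Without L1-R2 line 4T the difference in distance was 0.09. Of the 9045 pairs of microRNAs detected in all 7 lines, 26.5% had groups that did not overlap in this measure, and this pair did not belong to them. A ratio with miR-148a could not be formed.

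The members did not follow each other over the lines. Pearson's r between the normalized Ct of miR-148b and miR-152 was -0.29 over the 7 lines (Spearman's rho -0.41), and 0.11 without the 2 lines farthest from the median of miR-148b, line 4T of L1-R2 and line 8T of L1Mic-R2. For raw Ct r was -0.28. These correlations are given as descriptions, since the lines fall into 2 groups and share their cards. Among the other microRNAs detected in all 7 lines and varying among them, 133 for each member, those most like miR-148b in normalized level were miR-876-5p (r = 0.87), miR-149 (r = 0.87) and miR-324-3p (r = 0.85). Without the same 2 lines r fell to 0.55, 0.22 and 0.12, so that this likeness rests on them. For raw Ct r with these 3 was 0.77, 0.70 and 0.71 over the 7 lines. Those most like miR-152 were miR-484 (r = 0.85), miR-454 (r = 0.83) and miR-671-3p (r = 0.82). Without line 8T of L1-R2 and line 7T of L1Mic-R2, the 2 farthest for miR-152, r was 0.79, 0.91 and 0.17. For raw Ct over the 7 lines it was 0.76, 0.80 and 0.64.

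MiR-454 belongs to the miR-130 and miR-301 family, whose seed is the seed of miR-148 shifted by 1 base. Its bases 2 to 7 are bases 3 to 8 of the miR-148 and miR-152 family, AGUGCA. The sequences from RefSeq are shown for this comparison, with bases 2 to 8 in capitals.
miR-130b: cAGUGCAAugaugaaagggcau
miR-301a: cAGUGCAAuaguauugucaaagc
miR-301b: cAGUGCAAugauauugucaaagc
miR-454: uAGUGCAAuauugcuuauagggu
All 5 assays named for that family, these and miR-130a, were detected in all 7 lines, and 0 of 5 passed an adjusted p under 0.05, against 4.97% of all microRNAs tested. The log2 fold change was above 0 for 4 and below 0 for 1, with a median of 0.50. MiR-130b had 0.50 (standard error 0.33, adjusted p = 0.457 from limma) and miR-454 had 0.32 (standard error 0.27, adjusted p = 0.572 from limma). The raw Ct of miR-454 ran from 24.32 to 25.82, and that of miR-130a from 32.69 to 35.24. As with miR-148b and miR-152, microRNAs with a common seed thus had distant Ct values in the same lines.

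Other microRNAs that repress DNA methyltransferases were present in these lines. Of the list of 6, miR-29a, miR-29b, miR-29c (which act on DNMT3A and DNMT3B), miR-185 and miR-342-3p (DNMT1) were detected in all 7 lines, and miR-143 (DNMT3A) was Undetermined in all 7. Of the 5 tested, 0 passed an adjusted p under 0.05 (4.97% of all), and the groups of 1 did not overlap (19.3% of all). MiR-29c was at -0.48 in log2 fold change (standard error 0.14, limma adjusted p = 0.113), with raw Ct from 24.92 to 25.70 in L1-R2 and from 25.77 to 26.10 in L1Mic-R2. This was the 1 whose groups did not overlap. With RNU44 and RNU48 as the reference its sign turned (0.25), and limiting Ct to 35, or trend and robust in limma, brought its adjusted p under 0.05. MiR-29a, the earliest of the list, had raw Ct from 21.24 to 22.45 and was at -0.39 (standard error 0.24, limma adjusted p = 0.425), or 0.24 on that reference. MiR-185 had 0.65 (standard error 0.43, adjusted p = 0.467 from limma), with raw Ct from 30.06 to 31.87. The median of the list was -0.25, against 0.06 for all microRNAs tested.

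Of the microRNAs known to be silenced by methylation along with miR-148a in metastatic tumor lines, miR-9 and miR-34c-5p were on the card. MiR-34c-5p was Undetermined in all 7 lines, like miR-148a. MiR-9 was detected in all 7, with raw Ct from 27.26 to 27.68 in L1-R2 and from 27.80 to 28.13 in L1Mic-R2. The groups did not overlap in raw Ct but did so after quantile normalization, with a log2 fold change at -0.15 (standard error 0.22, limma adjusted p = 0.737), which was 0.075 without L1-R2 line 3T and 0.31 on RNU44 and RNU48. Methylation was not measured, so that the values say nothing of how miR-148a or miR-34c-5p came to be Undetermined.

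MiR-148 is also known to act on MITF, the regulator of the melanocyte lineage, and MDA-MB-435 has long been noted for expression like that of melanoma. The list linked to MITF held miR-137 and miR-182, which repress it, and miR-204 and miR-211, of which miR-211 is made from a target gene of MITF. MiR-137 was detected in 3 of 3 L1-R2 lines and 1 of 4 L1Mic-R2 lines. MiR-211 was detected in 3 of 3 and in 2 of 4. On the log2 scale miR-204 was at -0.59 (standard error 0.22, limma adjusted p = 0.208) and miR-182 at -0.45 (standard error 0.21, limma adjusted p = 0.271), which became 0.074 and 0.34 on RNU44 and RNU48. All 4 were below 0 after quantile normalization. None passed the adjusted threshold (4.97% of all), and 2 of the 4 had an unadjusted p under 0.05 (19.3% of all). MiR-137 passed the adjusted threshold without L1Mic-R2 line 8T, the only line of that group where it was detected.

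**Figure D5:**
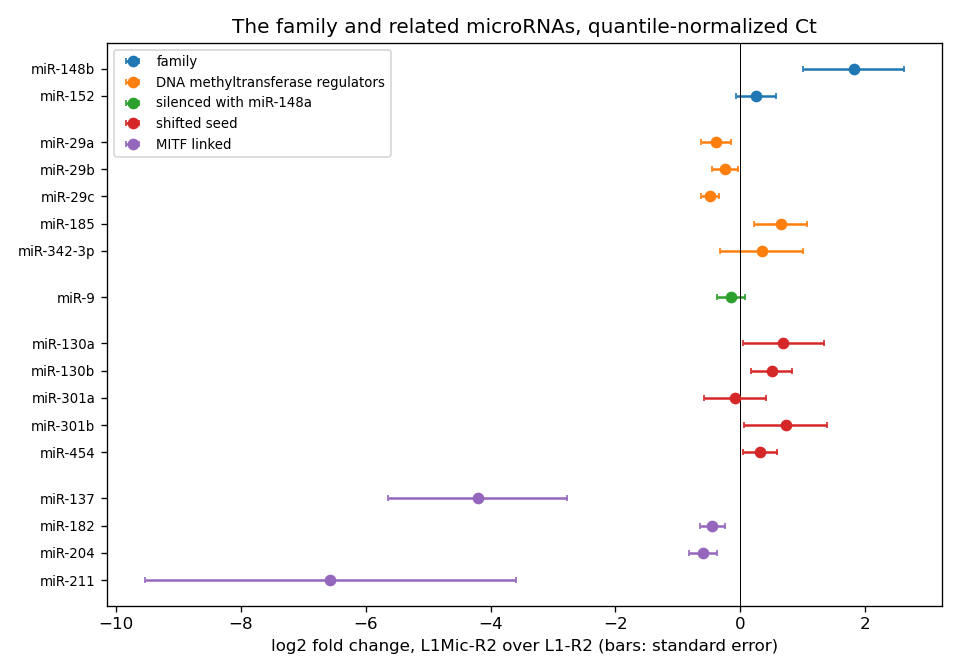
Log2 difference, L1Mic-R2 minus L1-R2, after quantile normalization (horizontal axis, bars give the standard error) for the members tested and the related lists (vertical axis), where an Undetermined well counts as 40. MiR-148b at 1.82 and miR-152 at 0.25 stand above 0, the miR-29 members stand below it (above it with RNU44 and RNU48 as the reference), and miR-137 and miR-211 stand lowest, with 3 and 2 L1Mic-R2 lines Undetermined.

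Markers of cell types were read beside these results. Of 7 markers of the melanocyte lineage, 5 were on the card by name and all 5 were tested, with 1 called lower in L1Mic-R2, miR-509-3-5p (log2 fold change -2.71, standard error 0.53, adjusted p = 0.0392 from limma), a call lost in 16 of 19 alternative settings. Over all microRNAs 4.97% were called. All 5, which include miR-204 and miR-211 of the list linked to MITF, were below 0 after quantile normalization. Of them 4 had an unadjusted p under 0.05 and 3 had groups that did not overlap, where either share was 19.3% over all microRNAs. Their summed level, as the log2 of summed 2 to the power of 40 minus raw Ct, ran from 14.9 to 15.6 in L1-R2 and from 13.9 to 14.7 in L1Mic-R2. Such a sum takes the Ct of different assays as alike. It mostly follows the assays with the earliest Ct and is not a count of molecules. Of 7 epithelial markers, 2 were detected in all 7 lines, and miR-205 was Undetermined in all 7. The 4 that were tested lay below 0 after quantile normalization, with a median of -1.33. Of these, 0 were called (4.97% over all microRNAs), 1 had an unadjusted p under 0.05 (19.3%), and the groups overlapped for each. The summed level of the 7 ran from 7.37 to 10.3 in L1-R2 and from 5.39 to 8.30 in L1Mic-R2. The endothelial marker miR-126 was higher in every L1Mic-R2 line, from 7.60 to 11.3 against 4.99 to 7.55 on this scale, and did not pass the adjusted threshold (log2 fold change 3.44, standard error 0.98, adjusted p = 0.104 from limma), though it did with trend and robust. Of 4 blood markers, miR-451 and miR-142-5p were Undetermined in all 7 lines. MiR-223 was detected in 4 lines, with an earliest raw Ct of 37.37 in L1-R2 and 35.35 in L1Mic-R2. MiR-142-3p was detected in 2 lines of L1-R2 and was Undetermined throughout L1Mic-R2. The summed level of the 4 ran from 1.68 to 4.58 in L1-R2 and from 0 to 4.70 in L1Mic-R2. Of 4 stromal markers, miR-143, miR-145 and miR-214 were Undetermined in all 7. MiR-199a-3p was detected in 3 lines, with an earliest raw Ct of 35.88 in L1-R2 and 36.08 in L1Mic-R2. The summed level of the 4 ran from 0 to 4.20 in L1-R2 and from 0 to 4.02 in L1Mic-R2. The part of these markers in the values of miR-148b and miR-152 was not tested.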

How the data were processed

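For each well the authors deposited a raw and an average Ct in cycles, a log2 scale before normalization, made on a 7900HT instrument and, by the paper's methods, imported with SDS RQ Manager at a threshold of 0.3. The deposited files have no header. A further deposited column was read as the fluorescence intensity above baseline at the end of the run, because in all 384 wells of each card it lay above 0.3 where a Ct is given and below it where the well is Undetermined. The average Ct, 40 for Undetermined, was used. The labels mention SYBR and injection into the mammary fat pad, where the methods have TaqMan assays and injection by tail vein.

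The 381 assays were quantile normalized across the 7 cards as in the paper's methods for tumors. MicroRNAs with a raw Ct below 38 in at least 3 lines (181) were compared with limma 3.58.1 in R 4.3.3 on 40 minus Ct, with Benjamini-Hochberg adjustment over all of them. Single values were compared by exact two-sided permutation tests in scipy 1.17.1. The fit was tested on simulated data. Alternatives were raw Ct, U6, RNU44 with RNU48, the mean of detected microRNAs, Ct limits of 38 and 35, other filters and tests, line number as a block and omission of each line. Named microRNAs are the members, up to 4 of each list with the smallest limma p, markers, controls and the 3 microRNAs most like each member. The members and lists were chosen with earlier results of these data known.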

Additional observations from a re-analysis of the deposited data

How the results depend on the processing

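MiR-148b and miR-152 stayed short of an adjusted p under 0.05 under all 19 alternatives, with limma's adjusted p from 0.212 to 0.745 for miR-148b and from 0.265 to 1 for miR-152. The unadjusted p of miR-148b from limma was under 0.05 with Ct limited to 38, with the block by file names and without L1Mic-R2 line 3T. It was not in the other alternatives. The log2 fold change of miR-148b kept its sign. It ran from 0.16 with Ct limited to 35, which most raw values of miR-148b exceeded, to 2.06 with the block by file names. Across the 7 fits without a line it ran from 0.93 to 2.29. That of miR-152 ran from 0.13 to 0.93, and from -0.083 (without L1-R2 line 8T) to 0.52 across the fits without a line. The difference in the ratio of the members was 1.57 after quantile normalization and ran from 0.09 to 1.18 without a line. It was -0.34 under a replicate block by line number, which compares the groups only within lines 3T and 8T. In these, miR-148b came 4.94 and 4.99 cycles after miR-152 in L1-R2, against 6.02 and 4.58 in L1Mic-R2, so that they moved in opposite directions. The labels do not say whether lines 3T and 8T share more than a number between the groups. Their deviations correlated at -0.04 and -0.20, which cannot settle it. With this replicate block miR-148b was at 0.69 and miR-152 at 0.66. MiR-148a and its ratios have no value under any alternative, since it was Undetermined in all 7 lines.

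The 9 microRNAs called between the groups by limma were 14 among those detected in all 7 lines and 21 with trend and robust. Scaling on RNU44 with RNU48 left 0, and so did no filter, a Student test and either block. At an unadjusted p under 0.05 these gave 37, 36, 35, 19 and 27. Either block compares the groups only within line numbers 3 and 8, which occur in both groups, so that its 0 calls say little. Leaving out a line left 0 to 4. Of 283 alternative values for 15 other named microRNAs, 9 reversed, 16 lost their call and 4 gained one. The gains by limma's adjusted p were miR-29c with Ct limited to 35 (0.0304) and with trend and robust (0.0472), miR-126 with trend and robust (0.0289) and miR-137 without L1Mic-R2 line 8T (0.0195). Of the reversals, those with RNU44 and RNU48, a scale whose median is 0.56, were miR-29c (0.25), miR-29a (0.24), miR-29b (0.39), miR-9 (0.31), miR-204 (0.074) and miR-182 (0.34). MiR-9 was also 0.17 with the block by file names and 0.075 without L1-R2 line 3T (from -0.36 to 0.075 without a line), and miR-130b was -0.071 with the block. The cause was not tested.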
